A study of Homo sapiens with 12 samples.

Results

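The SR splicing factors measured here are SRSF1, SRSF2, SRSF3, SRSF4, SRSF5, SRSF6, SRSF7, SRSF10, SRSF11 and TRA2A. A probe set, a group of short array probes read out as 1 value, was taken for a gene where the annotation gave it exactly 1 of these symbols. This gave 42 probe sets for 9 of the 10 genes, among 19775 genes and 54675 probe sets in all. The 3 probe sets of SRSF2 list more than 1 symbol, so SRSF2 has no value here. For each gene the probe set with the highest mean over the 12 arrays was its representative, and the 33 others are described beside it. Of the 42 probe sets, 38 reached log2 4 on at least 3 arrays and were tested, and these include all 9 representatives. The 4 that did not were 237485_at of SRSF3, 239511_s_at and 241245_at of SRSF4, and 227939_s_at of TRA2A, whose means over the 12 arrays lay between 1.95 and 3.03.

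Expression was measured on Affymetrix arrays with biotin-labelled cRNA. The cells were Sk-hep1, an established human line from ascites of a liver cancer, labelled as endothelial in type. The cells stood in growth medium (GM), which is based on DMEM, or in high-fat medium (HFM), which is based on DMEM/F12, for 12 or 24 hours, with 3 arrays in each of the 4 groups. The 2 media thus differ in their base as well as in their fat, and effects of these cannot be told apart. All groups share the 1 cell line and no genetic change is given for any of them. The labels do not say whether replicates were separate cultures, so the p-values below measure the spread between these arrays, which may be technical. In bulk RNA of this kind, fewer cells expressing a gene and less of its RNA per cell cannot be told apart. Values are log2 units of the authors' GCRMA summary. A change is a difference of group means ± its standard error with n = 3 arrays per group. A gene is said to rise or fall where limma gave a Benjamini-Hochberg adjusted p under 0.05 over 13130 genes, or over 24649 probe sets for the other probe sets. Levels of different probe sets are not set against each other, since each has its own response.

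SR proteins carry RNA recognition motifs and a tail rich in arginine and serine. They bind exonic enhancers in pre-mRNA, recruit the spliceosome to nearby splice sites, and several of them travel with the spliced mRNA to the cytoplasm and help its export. Kinases of the SRPK and CLK families phosphorylate the tail and so set where SR proteins are and what they bind. SR genes are also known for alternative exons with early stop codons, whose inclusion sends the transcript to nonsense-mediated decay, so that 1 gene yields several kinds of RNA.

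The gene starts of 4 members are shown because their representatives had the 3 largest falls and the largest rise in HFM at 24 hours. RefSeq (GRCh38.p14) gave 10 promoter windows for 8 of the members, each of 300 bases, 250 before and 50 after a gene start. SRSF7 has 2 windows, and the one printed is the one that holds TATAAA. Capitals mark matches, on either strand, to the motifs spelled out after the sequences. The windows lie at chr6:36594112-36594411 on the plus strand for SRSF3, chr2:38751312-38751611 on the minus strand for SRSF7, chr20:43457646-43457945 on the plus strand for SRSF6 and chr17:58007197-58007496 on the minus strand for SRSF1, and each is written 5′ to 3′ along its gene.
SRSF3: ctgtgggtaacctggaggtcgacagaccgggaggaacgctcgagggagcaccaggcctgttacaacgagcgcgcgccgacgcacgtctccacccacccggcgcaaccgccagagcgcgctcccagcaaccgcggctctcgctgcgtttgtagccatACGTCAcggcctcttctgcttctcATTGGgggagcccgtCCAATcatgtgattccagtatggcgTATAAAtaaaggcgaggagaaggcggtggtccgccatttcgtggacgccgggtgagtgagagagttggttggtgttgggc
SRSF7: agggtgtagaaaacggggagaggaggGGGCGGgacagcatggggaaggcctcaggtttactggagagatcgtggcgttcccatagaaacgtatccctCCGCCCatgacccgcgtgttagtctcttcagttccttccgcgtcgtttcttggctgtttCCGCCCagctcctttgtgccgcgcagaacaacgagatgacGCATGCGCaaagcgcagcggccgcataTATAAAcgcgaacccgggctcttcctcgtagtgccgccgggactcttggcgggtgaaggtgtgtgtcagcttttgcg
SRSF6: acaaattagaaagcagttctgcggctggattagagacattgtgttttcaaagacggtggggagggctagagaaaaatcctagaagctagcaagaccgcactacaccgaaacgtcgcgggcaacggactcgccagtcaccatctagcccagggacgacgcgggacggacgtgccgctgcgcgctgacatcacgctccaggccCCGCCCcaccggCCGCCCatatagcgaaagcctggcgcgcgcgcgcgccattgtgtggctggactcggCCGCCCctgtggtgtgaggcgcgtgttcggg
SRSF1: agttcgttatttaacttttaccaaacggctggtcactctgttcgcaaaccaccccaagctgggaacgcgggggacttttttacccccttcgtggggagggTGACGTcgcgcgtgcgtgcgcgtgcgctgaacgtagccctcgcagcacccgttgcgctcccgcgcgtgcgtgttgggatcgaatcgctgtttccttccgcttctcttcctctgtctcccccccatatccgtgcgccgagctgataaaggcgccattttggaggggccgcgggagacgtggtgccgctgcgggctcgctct

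The 4 windows do not share a set of motifs. TATAAA, the core of the TATA box, starts 30 bases before the gene start in SRSF3 and 27 before it in SRSF7, and is in 11.5% of the 35116 windows of all genes. It is also in a window of SRSF11, there on the opposite strand. TGACGT, the core of the cAMP response element, is in SRSF1, SRSF3 and SRSF5 and in 7.98% of all windows. In SRSF5 it directly follows CCGGAAG, an ETS-type motif that is in SRSF4 too and in 10.3% of all windows. GGGCGG, the Sp1-type GC box, is in SRSF4, SRSF6, SRSF7 and SRSF11 and in 45.0% of all windows, CCAAT is in SRSF3 and in 34.6%, and GCATGCGC, the core of an NRF1 site, is in SRSF7 and SRSF10 and in 3.05%. No match overlaps another. A match describes the letters in the window and no binding was measured.

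Some facts of the arrays touch every result below. For ACTB (actin), read out to gauge RNA integrity, the 3' probe set exceeded the 5' one by 1.58 ± 0.06 (SD, n = 3) in HFM and 1.07 ± 0.05 in GM at 24 hours (two-sided exact permutation test, p = 0.1, the smallest that 3 against 3 arrays allow), and 0.84 ± 0.13 and 0.89 ± 0.03 at 12 hours (exact p = 0.8). For GAPDH, read out likewise, it was 0.27 ± 0.03 and 0.16 ± 0.02 at 24 hours (exact permutation p = 0.1). At 12 hours it was 0.15 ± 0.00 and 0.15 ± 0.02 (exact permutation p = 0.6). The 18S rRNA control read 10.23 to 10.41 in HFM at 24 hours, 12.59 to 12.64 in GM at 24 hours and 12.04 to 12.21 on the 12-hour arrays. The spiked hybridisation controls were at 9.33 to 9.38 on the 3 GM arrays and HFM replicate 1 at 12 hours and at 8.87 to 9.14 on the other 8. HFM replicate 1 at 12 hours stands apart from its group for several members, so the changes of representatives at 12 hours are given with and without it, and those of other probe sets at 12 hours and with time in HFM where leaving it out changed a call, turned a sign or moved a called value by over 1.5 times. Against the label, 8 of 14 endothelial markers, among them CDH5, VWF and KDR, did not reach log2 4 on 3 arrays, and the highest was ENG at a mean of 7.39. The mean over the endothelial list was 4.07 to 4.10, 3.69 to 3.72, 3.74 to 3.78 and 3.57 to 3.71 in GM and HFM at 12 hours and GM and HFM at 24 hours, and 4 and 3 of its 6 tested genes fell in HFM at 12 and 24 hours. Of markers of other cells, 6 of 10 hepatocyte genes (ALB and APOB among them), 6 of 12 epithelial genes (EPCAM and CDH1 among them, with means of 2.64 and 2.62) and 5 of 8 leukocyte genes (PTPRC and CD3E among them) did not reach log2 4 on 3 arrays either. The keratins of that list, which form filaments of epithelial cells, were high, with means over the 12 arrays of 13.54 for KRT18, 12.27 for KRT8, 11.16 for KRT19 and 9.95 for KRT7. The mean over the epithelial list was 6.61 to 6.63 in GM and 6.22 to 6.28 in HFM at 12 hours, and 6.23 to 6.26 and 6.12 to 6.14 at 24 hours, and 5 and 4 of its 6 tested genes fell in HFM at 12 and 24 hours. The leukocyte mean was 4.10 to 4.14 and 3.79 to 3.88, then 3.67 to 3.74 and 3.63 to 3.69, and the hepatocyte mean 3.77 to 3.82 and 3.64 to 3.69, then 3.59 to 3.65 and 3.66 to 3.72. Of 3 tested leukocyte genes, 3 and 2 fell, and of 4 tested hepatocyte genes, 1 fell and 1 rose at 12 hours and 2 rose at 24 hours. Over all tested genes, 28.9% rose and 33% fell in HFM at 12 hours, and 20.6% rose and 37.5% fell at 24 hours. Several of the tested markers had group means near log2 4. The part of these markers, of the 3' to 5' difference and of the controls in the results below was not tested.

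At 12 hours the representatives of SRSF4, SRSF5, SRSF6, SRSF7 and SRSF11 rose in HFM against GM and that of SRSF3 fell. SRSF1, SRSF10 and TRA2A did not pass the test. Thus 6 of 9 genes were called, against 61.9% of all tested genes (28.9% higher and 33% lower), so the share is near the background. Without HFM replicate 1, 8 genes were called, 7 of them higher, SRSF1 and TRA2A being the additional ones, and 68.4% of all genes were called (30.1% higher and 38.2% lower). The median change of the 9 genes was 0.23, against -0.07 over all tested genes.

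At 24 hours the representatives went several ways in HFM. SRSF3, SRSF6, SRSF7 and SRSF10 fell, SRSF1 and SRSF11 rose, and SRSF4, SRSF5 and TRA2A did not pass the test. Again 6 of 9 were called, against 58.1% of all genes (20.6% higher and 37.5% lower), and the median change was 0.05 against -0.08. With each array centred on the median of its tested genes, which moves the median of all genes from -0.08 to 0.10, 5 members were higher (SRSF1, SRSF4, SRSF5, SRSF11 and TRA2A) and 3 lower (SRSF3, SRSF6 and SRSF7), and all genes were split 4852 higher to 3434 lower instead of 2700 to 4923. The HFM effect itself differed between 24 and 12 hours for SRSF1, SRSF3, SRSF5, SRSF6 and SRSF7, which is 5 of 9 against 52.8% of all genes (19.4% higher and 33.4% lower). It was larger at 24 hours for SRSF1 and more negative, or less positive, for the other 4. Without HFM replicate 1 at 12 hours, SRSF4 (-0.16), SRSF10 (-0.36) and SRSF11 (-0.49) were called as well, when 62.1% of all genes were.

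**Figure D1:**
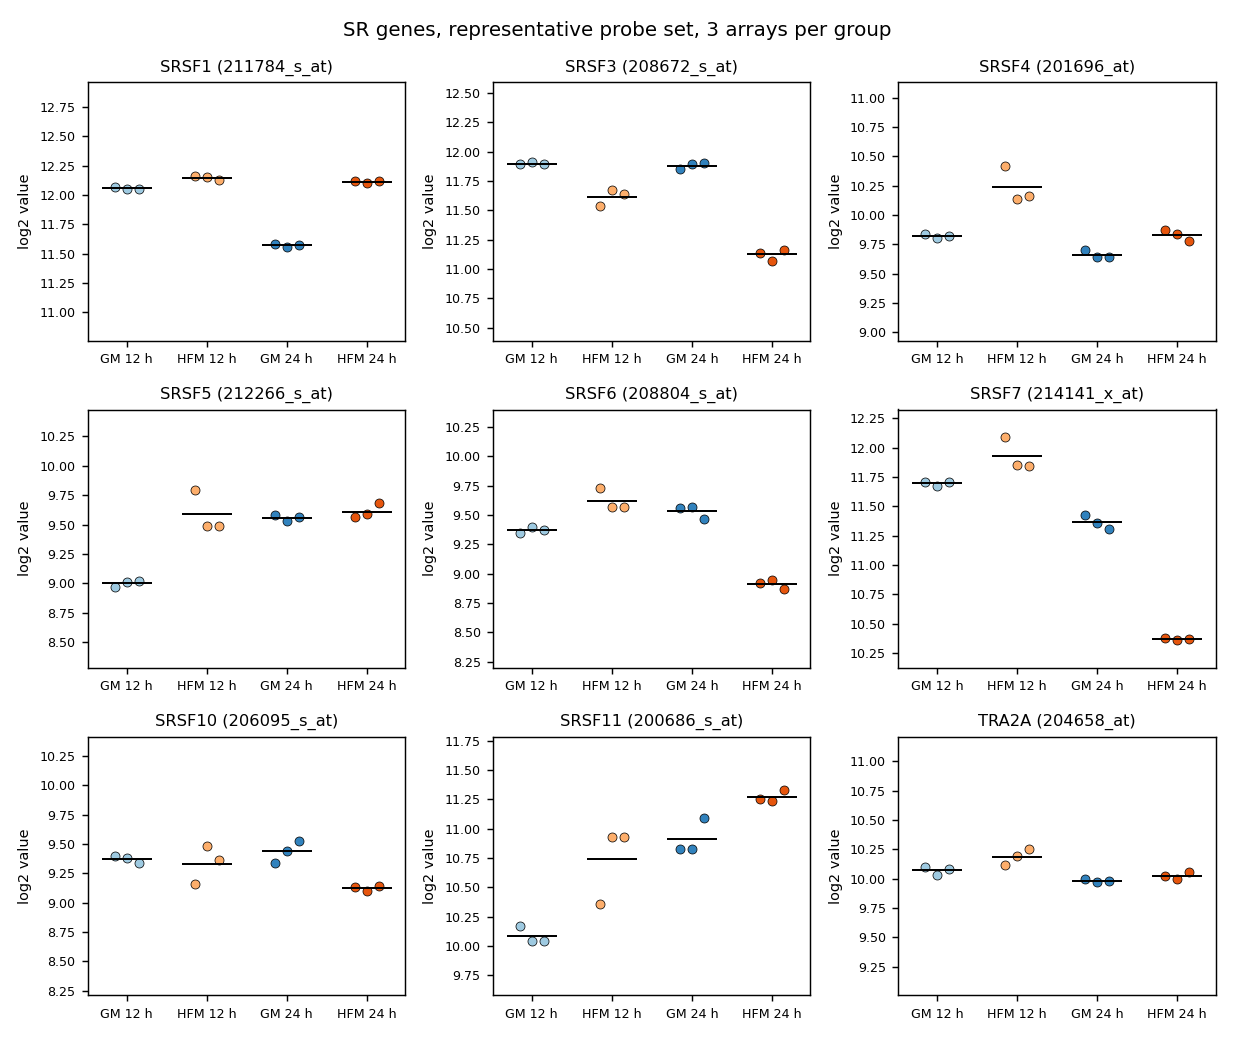
The representative probe set of each of 9 SR genes, in log2 units on the vertical axis, in GM and HFM at 12 and 24 hours. Points are single arrays and lines are group means, and every panel spans the same number of log2 units. The 3 HFM arrays at 24 hours of SRSF7 sit between 10.36 and 10.38, below every other array of that probe set, whereas TRA2A stays between 9.97 and 10.25.

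SRSF1, SRSF3 and SRSF7 shuttle between nucleus and cytoplasm and act as adaptors for mRNA export. SRSF7, which has a zinc knuckle beside its RNA recognition motif, showed the largest change of the 9 representatives at 24 hours. It read 11.71, 11.67 and 11.71 in GM and 12.09, 11.85 and 11.84 in HFM at 12 hours, and 11.43, 11.36 and 11.31 in GM and 10.38, 10.36 and 10.37 in HFM at 24 hours. The 4 groups do not overlap, with HFM highest at 12 and lowest at 24 hours. The change in HFM was 0.23 ± 0.07 at 12 hours (limma adjusted p = 0.0097; 0.15 without HFM replicate 1) and -1.0 ± 0.07 at 24 hours (adjusted p = 9.8e-08), a 2-fold lower level, and the change between these effects was -1.23 ± 0.09 (adjusted p = 6.9e-07). Between 12 and 24 hours SRSF7 fell by 1.56 ± 0.07 in HFM and by 0.33 ± 0.07 in GM. A called change of 2-fold or more was seen for 7.49% of all genes at 24 hours, and SRSF7 was the 1 representative among them.

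Its other probe sets differ from this in part. The probe set 201129_at fell by 0.60 ± 0.06 in HFM at 24 hours (limma adjusted p = 4.3e-06), with 8.97, 8.96 and 8.96 in GM against 8.28, 8.43 and 8.36 in HFM, and its 12-hour change of 0.14 ± 0.06 did not pass (adjusted p = 0.075) but did without HFM replicate 1 (0.20 ± 0.05, adjusted p = 0.0046). In contrast 213649_at rose by 0.98 ± 0.07 at 12 hours (adjusted p = 6.3e-07), from 6.51, 6.34 and 6.58 to 7.59, 7.40 and 7.39, and fell by 0.27 ± 0.07 at 24 hours. It also rose by 1.20 ± 0.07 from 12 to 24 hours in GM, where the representative and 201129_at fell. The 4 groups of 211439_at overlap throughout, between 4.78 and 5.58, and its 12-hour change of -0.13 ± 0.17 (adjusted p = 0.52) was 0.10 ± 0.12 without HFM replicate 1.

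SRSF3, the smallest SR protein, had a representative that fell at both times. It read 11.89, 11.91 and 11.89 in GM and 11.54, 11.67 and 11.64 in HFM at 12 hours, then 11.85, 11.89 and 11.90 in GM and 11.14, 11.07 and 11.16 in HFM at 24 hours. The GM arrays of both times overlap, with a change of -0.02 ± 0.05, and HFM lay below it at both. The change in HFM was -0.28 ± 0.05 at 12 hours (limma adjusted p = 0.00047; -0.24 without HFM replicate 1) and -0.76 ± 0.05 at 24 hours (adjusted p = 9.8e-08), a difference of -0.48 ± 0.07 between the times (adjusted p = 0.00014).

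Of the 4 other tested probe sets of SRSF3, 3 fell at 24 hours too. The values of 202899_s_at were 11.27, 11.21 and 11.17 in GM and 9.89, 9.74 and 9.82 in HFM, a change of -1.40 ± 0.07. Those of 235324_at were 5.65, 5.85 and 5.71 against 3.94, 3.84 and 4.00, a change of -1.82 ± 0.10, and this probe set showed no called change at 12 hours (0.06 ± 0.10, limma adjusted p = 0.64; -0.07 ± 0.07 without HFM replicate 1). The change of 208673_s_at was -0.42 ± 0.12 at 12 (-0.24 without HFM replicate 1) and -0.83 ± 0.12 at 24 hours. The remaining probe set went the other way at both times. For 232392_at, GM read 4.79, 4.77 and 4.88 and HFM 6.0, 5.60 and 5.79 at 12 hours, and GM 6.22, 5.96 and 6.26 and HFM 7.03, 7.14 and 7.15 at 24 hours, which is a rise of 0.99 ± 0.10 and of 0.96 ± 0.10 (adjusted p = 8e-06 and 5.4e-06). SRSF3 was thus called in both directions within 1 gene at both times. Where probe set types that can match several transcripts (names ending in _s_at or _x_at) are left out, 232392_at becomes the representative, and its direction turns. This rests on 1 probe set, since 235324_at is kept as well and had the change of -1.82 ± 0.10 at 24 hours.

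SRSF1, the founding member of the family, was higher in HFM than in GM at 24 hours in 6 of its 8 probe sets, the representative included. From 12 to 24 hours in GM, 4 of the 8 rose and 2 fell, the representative being 1 of the 2. It read 12.07, 12.05 and 12.05 in GM and 12.16, 12.15 and 12.13 in HFM at 12 hours, and 11.58, 11.56 and 11.57 in GM and 12.12, 12.10 and 12.12 in HFM at 24 hours. All 4 groups are apart, with GM at 24 hours lowest. The change in HFM was 0.09 ± 0.04 at 12 hours (limma adjusted p = 0.075; 0.08, and called, without HFM replicate 1) and 0.54 ± 0.04 at 24 hours (adjusted p = 3.1e-07). From 12 to 24 hours GM fell by 0.48 ± 0.04 (adjusted p = 1.1e-06), and the change in HFM was -0.03 ± 0.04 (adjusted p = 0.54). Of the 8 probe sets, however, 5 rose with time in HFM, 0 fell and 3 did not pass. These rises ran from 0.38 ± 0.09 for 201741_x_at to 1.41 ± 0.07 for 226419_s_at.

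Of the 7 other probe sets of SRSF1, 6 rose at 12 hours and 5 at 24 hours, and none fell at either time. The largest rise at 12 hours was that of 226419_s_at, from 7.09, 6.86 and 6.88 to 8.42, 8.30 and 8.29, by 1.39 ± 0.07, and this probe set rose by 1.24 ± 0.07 at 24 hours, from 8.55, 8.51 and 8.46 to 9.75, 9.76 and 9.73. The rises of 201742_x_at were 0.49 ± 0.06 and 1.29 ± 0.06, and those of 227164_at 0.65 ± 0.06 and 1.28 ± 0.06. The changes of 229246_at were 0.51 ± 0.15 at 12 hours, a call lost without HFM replicate 1 (0.40 ± 0.16), and 0.26 ± 0.15 at 24 hours, where it did not pass (limma adjusted p = 0.16). They were 0.32 ± 0.09 and 0.60 ± 0.09 for 201741_x_at. In 208863_s_at, which was not called at 12 hours (0.11 ± 0.07, adjusted p = 0.17), the 24-hour rise was 0.78 ± 0.07. The 24-hour change of 239384_at was -0.04 ± 0.12 (adjusted p = 0.79) after a rise of 0.71 ± 0.12 at 12 hours. From 12 to 24 hours in GM the probe sets of SRSF1 parted. The representative and 208863_s_at fell there, by 0.48 ± 0.05 and 0.57 ± 0.07 in the fit over probe sets, whereas 226419_s_at rose by 1.56 ± 0.07, 229246_at by 1.02 ± 0.15, 239384_at by 0.92 ± 0.12 and 227164_at by 0.25 ± 0.06. The changes of 201742_x_at (-0.15 ± 0.06, limma adjusted p = 0.052) and 201741_x_at (0.10 ± 0.09, adjusted p = 0.35) did not pass.

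SRSF4, SRSF5 and SRSF6 encode the proteins first known as SRp75, SRp40 and SRp55. SRSF6 changed sign with time in its representative. Its representative read 9.35, 9.40 and 9.37 in GM and 9.73, 9.57 and 9.57 in HFM at 12 hours, and 9.56, 9.57 and 9.47 in GM and 8.92, 8.95 and 8.87 in HFM at 24 hours. HFM at 24 hours lies below all other arrays. The change in HFM was 0.25 ± 0.06 at 12 hours (limma adjusted p = 0.0024; 0.20 without HFM replicate 1) and -0.62 ± 0.06 at 24 hours (adjusted p = 1.6e-06), and the effects differed by -0.88 ± 0.08 (adjusted p = 3.2e-06). The only other probe set, 206108_s_at, fell at both times. It read 8.58, 8.53 and 8.59 in GM and 7.58, 7.35 and 7.33 in HFM at 12 hours, a change of -1.14 ± 0.07 (adjusted p = 1.3e-07), and 7.90, 8.01 and 8.04 against 6.37, 6.34 and 6.35 at 24 hours, a change of -1.63 ± 0.07 (adjusted p = 2.1e-09). Both probe sets of SRSF6 thus fell at 24 hours, and at 12 hours 1 rose while the other fell.

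The representative of SRSF5 was higher in HFM at 12 hours and in both media at 24 hours than in GM at 12 hours. The representative read 8.97, 9.01 and 9.02 in GM and 9.79, 9.49 and 9.49 in HFM at 12 hours, and 9.58, 9.53 and 9.56 in GM and 9.56, 9.59 and 9.68 in HFM at 24 hours. GM at 12 hours stands below the other groups, which overlap. The 12-hour rise was 0.59 ± 0.08 (limma adjusted p = 5e-05; 0.48 without HFM replicate 1), the 24-hour change 0.05 ± 0.08 (adjusted p = 0.61), and the effects differed by -0.54 ± 0.11 (adjusted p = 0.0013). The probe set 203380_x_at rose at both times, by 0.58 ± 0.06 and 0.28 ± 0.06. The probe set 210077_s_at reached log2 4 in HFM at 24 hours only, with 4.93, 4.98 and 4.72 against 2.97, 2.84 and 2.79 in GM, a change of 2.01 ± 0.09. Its changes of -0.11 ± 0.09 in HFM at 12 hours and -0.01 ± 0.09 with time in GM did not pass. It passed the filter through that group alone, so a difference was bound to appear and its call is not counted as support.

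SRSF4 rose at 12 hours. The representative read 9.84, 9.80 and 9.82 in GM and 10.42, 10.14 and 10.16 in HFM at 12 hours, and 9.70, 9.64 and 9.64 in GM and 9.87, 9.84 and 9.78 in HFM at 24 hours. HFM at 12 hours is highest, GM at 24 hours is lowest, and the groups between them overlap. The change was 0.42 ± 0.07 at 12 hours (limma adjusted p = 0.00032; 0.33 without HFM replicate 1) and 0.17 ± 0.07 at 24 hours (adjusted p = 0.055), where the arrays of the 2 media did not overlap. The 24-hour change was 0.35 when arrays were centred, and passed there, as it did in several other alternatives, among them those without HFM replicate 1 or 2 at 12 hours (0.17 in both). The probe sets 242837_at and 239512_at rose by 0.82 ± 0.08 and 0.64 ± 0.13 at 12 hours. Their changes at 24 hours were 0.41 ± 0.08, which passed, and 0.28 ± 0.13, which did not (adjusted p = 0.081). Both rose from 12 to 24 hours in GM, by 1.23 ± 0.08 and 0.95 ± 0.13, where the change of the representative was -0.16 ± 0.07 (adjusted p = 0.062).

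SRSF10, which represses splicing in its dephosphorylated form, changed least among the genes that fell at 24 hours. It read 9.40, 9.38 and 9.34 in GM and 9.16, 9.48 and 9.36 in HFM at 12 hours, and 9.34, 9.44 and 9.53 in GM and 9.13, 9.10 and 9.14 in HFM at 24 hours. HFM at 24 hours lies below the other 3 groups, and these overlap. The change was -0.04 ± 0.08 at 12 hours (limma adjusted p = 0.63; 0.04 without HFM replicate 1) and -0.32 ± 0.08 at 24 hours (adjusted p = 0.0034). With centred arrays the latter was -0.14 and not called. At 24 hours 210178_x_at and 213594_x_at fell too, by 0.45 ± 0.10 and 0.32 ± 0.05, whereas the changes of 204299_at (0.17 ± 0.11, adjusted p = 0.21) and 225348_at (0.13 ± 0.06, adjusted p = 0.061) did not pass. At 12 hours 213594_x_at and 225348_at rose, by 0.35 ± 0.05 and 0.15 ± 0.06, and 210178_x_at and 204299_at had changes of 0.22 ± 0.10 and 0.17 ± 0.11 that did not pass. Without HFM replicate 1 these were 0.09 ± 0.07, still not called, and 0.31 ± 0.08, which was called (adjusted p = 0.0058).

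SRSF11, an SR-related protein also known as p54, rose in all 4 comparisons. The representative read 10.17, 10.04 and 10.04 in GM and 10.36, 10.93 and 10.93 in HFM at 12 hours, and 10.83, 10.83 and 11.09 in GM and 11.25, 11.24 and 11.33 in HFM at 24 hours. HFM replicate 1 at 12 hours lies below the other arrays of its group. The change in HFM was 0.66 ± 0.13 at 12 hours (limma adjusted p = 0.0013), or 0.85 ± 0.08 without that array, and called in both fits. It was 0.36 ± 0.13 at 24 hours (adjusted p = 0.039), a call that is lost without GM replicate 1 or 2 or without any 1 of the HFM arrays at 24 hours (changes of 0.31 to 0.37, adjusted p = 0.068 to 0.12) and with no filter on low values (adjusted p = 0.056). In GM it rose by 0.84 ± 0.13 with time and in HFM by 0.53 ± 0.13, or by 0.34 ± 0.08 without HFM replicate 1 at 12 hours, and called in both fits.

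The probe sets 200685_at and 213742_at of SRSF11 rose at both times too. The changes of 200685_at were 1.45 ± 0.16 and 1.18 ± 0.16, with 7.29, 7.21 and 7.26 in GM and 8.20, 8.96 and 8.94 in HFM at 12 hours and 8.32, 8.36 and 8.51 against 9.53, 9.68 and 9.53 at 24 hours. Here too HFM replicate 1 at 12 hours is the lowest of its group. The changes of 213742_at were 0.61 ± 0.09 and 0.72 ± 0.09. The probe set 236948_x_at read 2.93, 3.04 and 2.56 in GM and 6.26, 6.68 and 6.55 in HFM at 24 hours. It reached log2 4 in that group alone and lay between 2.07 and 3.04 on every other array, so it passed the filter through the group where it is high. Like that of 210077_s_at, its change of 3.65 ± 0.13 was bound to appear, and its call is not counted as support.

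TRA2A, a relative of the fly transformer-2 splicing activator, had a representative with no called HFM effect beside probe sets with large ones. The representative read 10.10, 10.03 and 10.08 in GM and 10.12, 10.19 and 10.25 in HFM at 12 hours, and 10.00, 9.97 and 9.98 in GM and 10.02, 10.00 and 10.06 in HFM at 24 hours. Its changes in HFM were 0.12 ± 0.05 at 12 hours (limma adjusted p = 0.06; 0.15, and called, without HFM replicate 1) and 0.05 ± 0.05 at 24 hours (adjusted p = 0.45). In contrast 229574_at read 5.27, 5.59 and 5.37 in GM and 6.96, 6.82 and 6.77 in HFM at 12 hours, and 6.93, 7.0 and 6.88 in GM and 9.19, 9.35 and 9.36 in HFM at 24 hours. That is a rise of 1.44 ± 0.09 and of 2.36 ± 0.09 (adjusted p = 1.3e-07 and 6.8e-10). The groups HFM at 12 hours and GM at 24 hours overlap there, with GM at 12 hours below and HFM at 24 hours above. The values of 213593_s_at followed the same order, with rises of 1.33 ± 0.09 and 2.47 ± 0.09. For 213575_at the 12-hour change was 0.18 ± 0.10 (adjusted p = 0.14) and the 24-hour rise 2.09 ± 0.10, from 4.26, 4.15 and 4.02 to 6.15, 6.31 and 6.26.

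**Figure D2:**
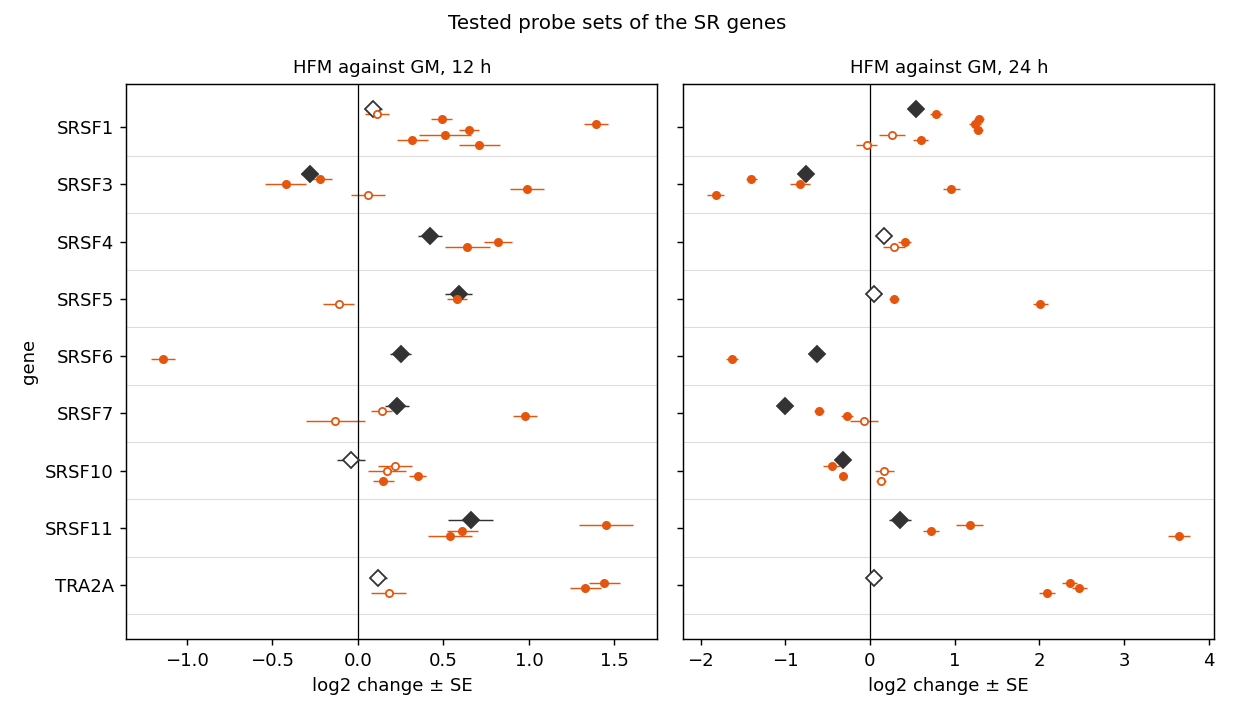
Log2 change ± SE of HFM against GM, on the horizontal axis, for the 38 tested probe sets of each SR gene at 12 hours (left) and 24 hours (right), with separate axis ranges. Dark diamonds are representatives, circles are the other probe sets, and open symbols did not pass the adjusted p of 0.05. The 4 tested probe sets of TRA2A spread from 0.05 to 2.47 at 24 hours and the 5 of SRSF3 from -1.82 to 0.96.

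Over all their tested probe sets, the SR genes had 23 of 38 higher and 4 lower in HFM at 12 hours, against 32.5% and 27% of all 24649 probe sets. Without HFM replicate 1, 25 were higher and 4 lower. The share over all probe sets is not given without that array, and over all genes 30.1% were higher and 38.2% lower. At 24 hours 17 were higher and 12 lower, against 23.2% and 35.6%. The 17 include 210077_s_at and 236948_x_at, and the 23 and 25 at 12 hours include 236948_x_at. Without all probe sets that reached log2 4 in 1 group alone, 22 of 36 were higher and 4 lower at 12 hours, against 32.4% and 27.1% of 24309. At 24 hours 15 of these were higher and 12 lower, against 22.6% and 36%. A change of 2-fold or more was called for 5 of the 38 at 12 hours (background 3.18%) and for 13 of the 38 at 24 hours (9.99%), of which 9 were higher and 4 lower, in 7 genes. Without those 2 probe sets, 11 of 36 were called at 24 hours, 7 higher and 4 lower, against 9.4%. Probe sets of 1 gene share their gene and are not replicates.

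Probe sets of a gene were called in both directions for 2 of the 9 members at 12 hours (SRSF3 and SRSF6), against 6.24% of 6477 genes with several tested probe sets, and for 1 at 24 hours (SRSF3), against 15.5%. A gene with more probe sets has more room for this, and these shares are not matched for their number. The range of changes within a gene had a median of 1.12 over the 9 members at 12 hours and 1.34 at 24 hours, against 0.27 and 0.40 over the 6477 genes. Without probe sets that reached log2 4 in 1 group alone, the ranges of SRSF5 and SRSF11 at 24 hours went from 1.96 and 3.30 to 0.23 and 0.83. The median of the 9 was then 1.12 at 12 and 0.94 at 24 hours, against 0.26 and 0.39 over 6384 genes. Since a range grows with the number of probe sets, genes with 4 or more tested probe sets were also set apart. There the 6 members (SRSF1, SRSF3, SRSF7, SRSF10, SRSF11 and TRA2A) had a median range of 1.21 and 1.88, and the 1250 genes of all had 0.53 and 0.86. SRSF11 reaches 4 only through 236948_x_at. Without probe sets of that kind, the other 5 members had 1.30 and 1.34 and 1198 genes had 0.52 and 0.82. These medians are descriptions with no test.

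**Figure D3:**
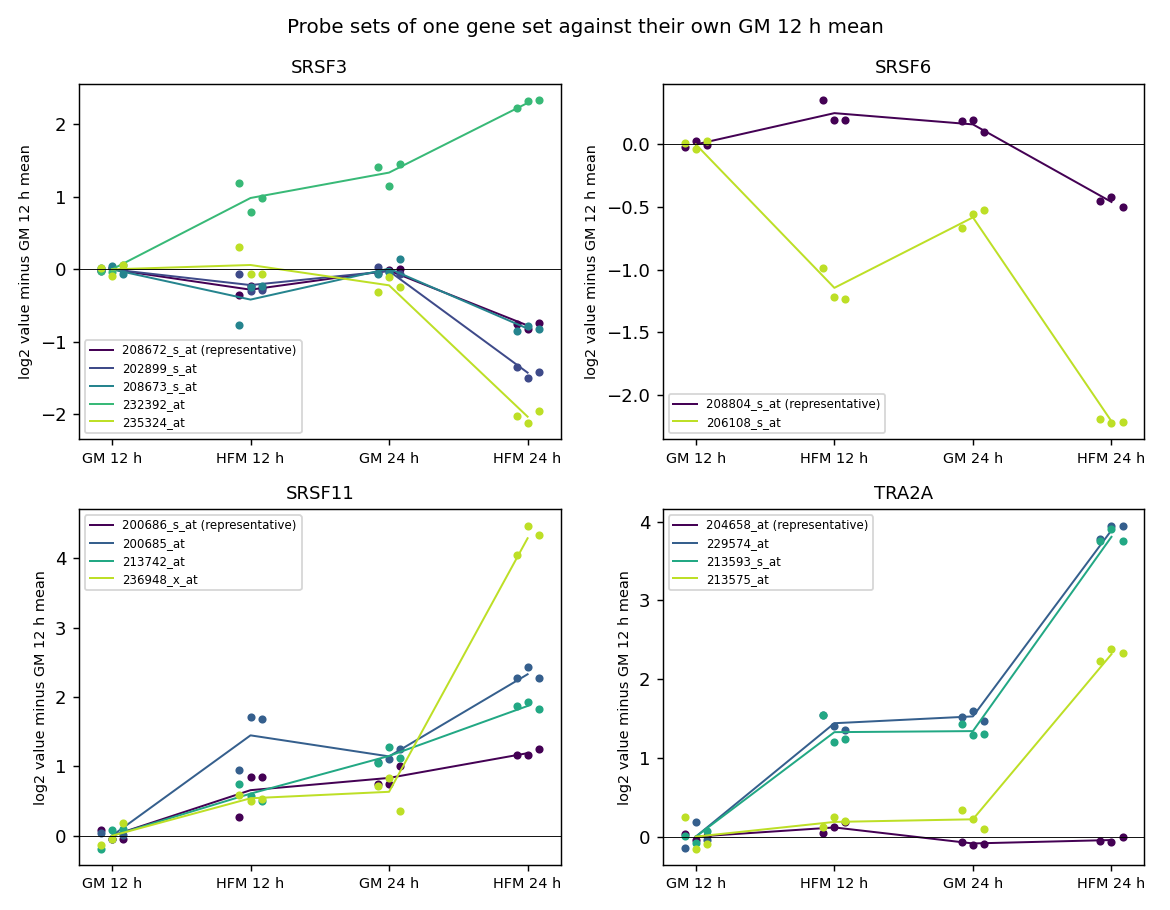
Tested probe sets of SRSF3, SRSF6, SRSF11 and TRA2A, each as log2 value minus its own mean in GM at 12 hours (vertical axis), in the 4 groups. Points are arrays, lines join the group means to guide the eye and do not mark a time course, and the axes of the panels differ. In HFM at 24 hours 232392_at of SRSF3 is up where its other probe sets are down, and the representative of TRA2A stays near 0.

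Across time, the representatives of SRSF5, SRSF6 and SRSF11 rose and those of SRSF1 and SRSF7 fell from 12 to 24 hours in GM, which is 5 of 9 against 69.9% of all genes (29.4% higher and 40.5% lower). In HFM, SRSF11 rose and SRSF3, SRSF4, SRSF6, SRSF7, SRSF10 and TRA2A fell, which is 7 of 9 against 63.1% (20.1% higher and 43.1% lower). With centred arrays, 3 were higher and 4 lower in HFM, and all genes were split 5133 to 3790 instead of 2637 to 5653. With probe sets named _s_at or _x_at left out, 4 members were higher and 3 lower in HFM, beside 2176 and 4146 of all genes. Without HFM replicate 1 at 12 hours, 7 were called in GM, with SRSF4 and TRA2A added (both lower, 77.1% of all genes called), and 8 in HFM, with SRSF5 added (0.12, 64.4%).

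For SRSF6 the change with time was 0.16 ± 0.06 in GM (limma adjusted p = 0.022), a call lost without GM replicate 1 or 3 at 12 hours or GM replicate 1 or 2 at 24 hours (adjusted p = 0.059 to 0.076), and -0.71 ± 0.06 in HFM (adjusted p = 4.9e-07). For SRSF3 it was -0.49 ± 0.05 in HFM (adjusted p = 3.5e-06). For SRSF4 it was -0.41 ± 0.07 in HFM (adjusted p = 0.00029). SRSF10 fell by 0.21 ± 0.08 in HFM (adjusted p = 0.031), a call lost without HFM replicate 2 or 3 at 12 hours or any 1 HFM array at 24 hours (changes of -0.22 to -0.14, adjusted p = 0.057 to 0.13). The representative of TRA2A fell by 0.16 ± 0.05 in HFM (adjusted p = 0.014), a call lost without HFM replicate 3 at 12 hours (-0.13) or replicate 2 at 24 hours (-0.14). Its 3 other tested probe sets rose there, 229574_at by 2.44 ± 0.09, 213593_s_at by 2.48 ± 0.09 and 213575_at by 2.13 ± 0.10, so that the direction of TRA2A depends on the probe set.

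Other members parted in the same way. Over the tested probe sets, calls went in both directions within 3 of the 9 members for time in GM (SRSF1, SRSF6 and SRSF7), against 5.51% of genes with several, and within 4 for time in HFM (SRSF3, SRSF4, SRSF10 and TRA2A), against 15.2%. Here too the shares are not matched for the number of probe sets per gene, so no excess is read from them. Without probe sets that reached log2 4 in 1 group alone, 18 of 36 rose and 5 fell with time in GM, against 32.5% and 34% of 24309. With time in HFM 16 rose and 13 fell, against 22% and 40.9%. In GM, 206108_s_at of SRSF6 fell by 0.58 ± 0.07 while its representative rose. In HFM, 232392_at of SRSF3 rose by 1.31 ± 0.10, 242837_at and 239512_at of SRSF4 by 0.82 ± 0.08 and 0.59 ± 0.13, and 204299_at of SRSF10 by 0.45 ± 0.11, while their representatives fell. The comparison of times in GM and that of media at 12 hours share the GM arrays of 12 hours, so their values for a gene are not independent.

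The mean of the 9 representatives was 10.37 to 10.39 on the GM arrays and 10.59 to 10.61 on the HFM arrays at 12 hours, and 10.42 to 10.45 and 10.25 to 10.28 at 24 hours. The tested genes with the profile most like this mean over the 12 arrays were EXOSC9, a subunit of the RNA exosome (Pearson r = 0.9864), DHRS4-AS1, an antisense RNA (r = 0.9862), and KYNU, an enzyme of tryptophan breakdown (r = 0.9796). The 12 arrays fall in 4 groups, so these values describe the likeness of group means and carry no p.

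Genes that act with the SR factors were counted by list, beside medians of -0.07 at 12 and -0.08 at 24 hours over all genes. Of 12 SR protein kinases, phosphatases and importins, 7 rose and 1 fell in HFM at 12 hours, and 5 rose and 1 fell at 24 hours, with median changes of 0.33 and 0.15. CLK1, a nuclear kinase of the arginine-serine tail, rose by 1.98 ± 0.08 at 12 and 1.93 ± 0.08 at 24 hours (limma adjusted p = 2.4e-08 and 3.3e-09). Its relative CLK4 rose by 1.29 ± 0.07 and 0.91 ± 0.07. CLK2 rose by 0.30 ± 0.08 at 12 hours and had a change of -0.08 ± 0.08 at 24 hours (adjusted p = 0.42), and the changes of CLK3 (0.12 ± 0.09 and 0.06 ± 0.09) did not pass. Of the SRPK kinases, which act on SR proteins mainly in the cytoplasm, SRPK1 rose at 12 hours by 0.35 ± 0.05 and changed by -0.07 ± 0.05 at 24 hours (adjusted p = 0.22), and SRPK2 rose by 0.38 ± 0.05 and 0.35 ± 0.05. PPP1CA, a catalytic subunit of protein phosphatase 1, was the gene that fell, by 0.50 ± 0.06 and 0.58 ± 0.06.

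Of the 7 other SR proteins tested, 2 rose and 4 fell at 12 hours and 0 rose and 4 fell at 24 hours (median -0.15 and -0.33). SREK1 and SCAF11 rose at 12 hours, by 0.61 ± 0.06 and 1.09 ± 0.06, and SCAF1 fell then by 0.48 ± 0.11. Among the 4 groups, the mean of SCAF1 exceeded log2 4 only in GM at 12 hours (4.20, against 3.72 in HFM). Its fall, among the 4 at 12 hours, is thus near the filter and is not counted as support. SCAF4 (-1.66 ± 0.07), TRA2B, the paralogue of TRA2A (-0.53 ± 0.05), and SRSF8 (-0.35 ± 0.05) fell at 24 hours. Of 28 SR-related and coactivator proteins, 13 rose and 5 fell at 12 hours, and 12 rose and 5 fell at 24 hours (median 0.19 and 0.11). The largest changes among called genes at 24 hours were those of RSRP1 (1.71 ± 0.08), CCNL1, a cyclin of splicing speckles (1.64 ± 0.07), and NKTR (1.36 ± 0.08), and at 12 hours those of RSRP1 (1.40 ± 0.08), PPIG (1.30 ± 0.05) and NKTR (1.26 ± 0.08).

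The hnRNP proteins, which often oppose SR proteins at splice sites, went both ways, with 11 of 28 higher and 6 lower at 12 hours and 8 higher and 11 lower at 24 hours (median 0.01 and -0.08). HNRNPA1 rose by 0.84 ± 0.05 and 1.19 ± 0.05, PTBP2 by 0.94 ± 0.11 at each time, and HNRNPA3 by 0.78 ± 0.08 at 12 hours, while HNRNPAB fell by 1.15 ± 0.06 at 24 hours. Of 32 spliceosomal proteins, 7 rose and 15 fell at 12 hours, and 2 rose and 18 fell at 24 hours (median -0.16 and -0.25). SF3B4, of the U2 particle, fell by 0.62 ± 0.07 and 1.59 ± 0.07, SF3A2 fell by 0.72 ± 0.06 at 12 hours, SF3B1 rose by 0.64 ± 0.04 then, and PRPF4 and SF1 fell by 0.86 ± 0.08 and 0.78 ± 0.06 at 24 hours. Of the 10 tested genes of nonsense-mediated decay and the exon junction complex, of 16 listed, 1 rose and 3 fell at 12 hours, and 2 rose and 7 fell at 24 hours (median -0.10 and -0.57). PYM1 and SMG8 fell at 24 hours by 1.34 ± 0.11 and 1.31 ± 0.05 and SMG9 rose by 0.83 ± 0.11, and at 12 hours UPF2 rose by 0.65 ± 0.08 and SMG5 and SMG6 fell by 0.53 ± 0.09 and 0.34 ± 0.10. Without HFM replicate 1 the falls at 12 hours numbered 8 among SR-related, 11 among hnRNP and 21 among spliceosomal proteins and 5 among decay and junction genes. The rises of these lists then numbered 14, 13, 8 and 1. In that fit 38.2% of all genes fell and 30.1% rose. The counts of each list are descriptions beside the shares of all genes given above.

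**Figure D4:**
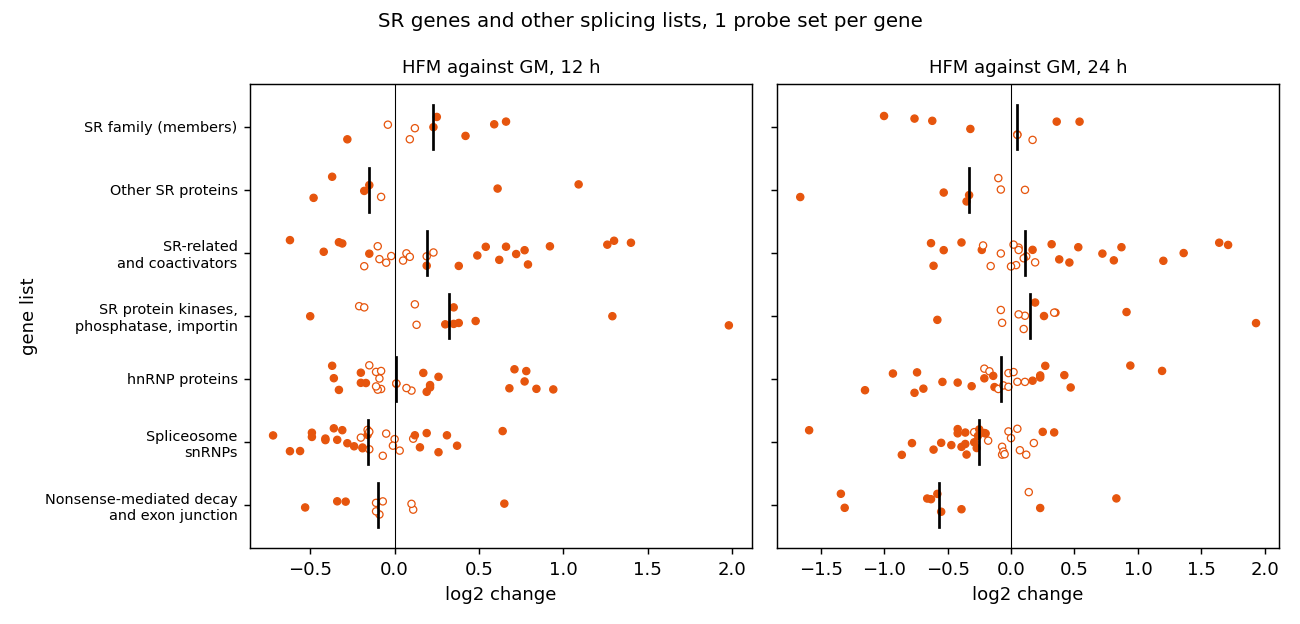
Log2 change of HFM against GM (horizontal axis) at 12 hours (left) and 24 hours (right) for the genes of 7 lists, 1 probe set per gene. Filled points passed the adjusted p of 0.05, open points did not, and bars are list medians. The SR genes spread from -0.28 to 0.66 at 12 hours and from -1.0 to 0.54 at 24 hours.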

How the data were processed

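The 12 arrays were grouped by the medium and time in their labels, 3 per group. The deposited values are log2 expression values that, per the submitters' processing notes, the authors obtained by GCRMA, a method that subtracts background, normalises between arrays and condenses the probes into 1 value per probe set. No version of it is stated in the sources used here. No gene was given to the 1801 probe sets with several symbols or to the 11777 with none. Gene symbols came from the platform annotation, and Entrez identifiers of 41043 of 41097 probe sets with 1 symbol were matched to the reference, with 0 symbols changed.

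A model of 4 group means was fitted to all tested genes, and separately to all tested probe sets, with limma 3.58.1 (lmFit, eBayes and Benjamini-Hochberg adjustment) under R 4.3.3. All 5 comparisons came from the same fit. As alternatives the filter was set to log2 6 or dropped, probe sets were averaged per gene, cross-hybridising types were dropped, arrays were centred or quantile normalised again, eBayes was run robust with a trend, only the groups compared were fitted, a replicate block or a term for the hybridisation control class was added, a 2-fold minimum was set, and each array was left out in turn. Matplotlib 3.10.9 and Python 3.11.15 drew the figures. Precision is limited by the number of arrays.

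The members, lists and tests were chosen with earlier results of these data known. Genes were named by a rule. It took every member with every probe set, up to 3 called genes of each related list with the largest absolute change at 24 and at 12 hours, CLK1 to CLK4, SRPK1 and SRPK2 whatever their values, and the 3 genes with the profile most like the mean of the members. EPCAM, CDH1, ALB, APOB, PTPRC, CD3E, CDH5, VWF, KDR and ENG are named as markers, and KRT7, KRT8, KRT18 and KRT19 for their levels, after these were seen.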

Additional observations from a re-analysis of the deposited data

Results flagged for a closer look

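For the representatives of 5 SR genes the effect of HFM differed between 24 and 12 hours by the interaction term of limma over all genes, on the log2 scale. The difference was 0.45 for SRSF1 (adjusted p = 4.3e-05), -0.48 for SRSF3 (adjusted p = 0.00014), -0.54 for SRSF5 (adjusted p = 0.0013), -0.88 for SRSF6 (adjusted p = 3.2e-06) and -1.23 for SRSF7 (adjusted p = 6.9e-07). Such a difference was called for 52.8% of all genes. Other probe sets differ in part from their representatives. In TRA2A, whose representative was not called, the 3 other tested probe sets had called differences of 0.92, 1.14 and 1.91. That of 232392_at of SRSF3 was -0.03 ± 0.15 and not called. Without probe sets that reached log2 4 in 1 group alone, 7 of 36 were higher and 14 lower, against 18.2% and 34.1% of 24309. For SRSF6 and SRSF7 the HFM effect was above 0 at 12 hours and below 0 at 24 hours. ACTB had its largest excess of 3' over 5' signal in HFM at 24 hours too, 1.58 ± 0.06 against 1.07 ± 0.05 in GM. For GAPDH the excess was 0.27 ± 0.03 against 0.16 ± 0.02, and the part of either in these differences was not tested.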

How the results depend on the processing

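Precision is limited by 3 arrays per group and by probe sets near background. With a 2-fold minimum, SR genes called fell to 0 at 12 hours, 1 at 24 hours, 0 and 1 for time in GM and HFM and 1 for the difference of effects, and all genes to 286, 983, 561, 1004 and 1045, since small changes are then left out. With probe sets averaged per gene, 8 SR genes were called for time in GM and 8 for the difference, beside 8740 and 6526 of all genes. For SRSF5 and SRSF11 these averages include 210077_s_at and 236948_x_at, which reached log2 4 in HFM at 24 hours alone. The count for the difference is thus not read as a gain. Without cross-hybridising types 2 SR genes were called for the difference, beside 5390 of all genes, in a fit where SRSF5 and SRSF6 have no probe set left. The cause of the other changes was not tested. Added after seeing the data were the probe set counts without HFM replicate 1 at 12 hours, which gave 29 called at 12 hours and 32 for time in HFM, and the counts and ranges without probe sets that reached log2 4 in 1 group alone. Without that array 68.4% and 64.4% of all genes were called in these comparisons, and the share of all probe sets is not given.

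Leaving out 1 array gave 6 to 8 SR genes called at 12 hours, 5 to 7 at 24 hours, 4 to 7 and 5 to 8 for time in GM and HFM, and 5 to 8 for the difference, with 8 without HFM replicate 1 at 12 hours. Over all genes, in the same order, 7169 to 8975, 6919 to 8731, 8415 to 10120, 7618 to 8458 and 6204 to 8159 were called. The labels number the replicates without saying that a number marks a shared batch, and the correlations of deviations of same-numbered arrays ran from -0.17 to 0.25, with 5 of 12 over 0.1. A replicate block gave 6, 7, 6, 7 and 7 SR genes called, within 1.5 times the counts without it. With the block 8267, 7757, 9247, 8367 and 7073 of all genes were called.

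Some member changes turned sign. With the mean of probe sets, the values at 12 hours were 0.05 for SRSF3, -0.45 for SRSF6 and 0.17 for SRSF10. For time in GM they were 0.33 for SRSF1, 0.19 for SRSF3, 0.52 for SRSF4, -0.21 for SRSF6 and 0.61 for TRA2A. For time in HFM they were 0.54 for SRSF1, 0.33 for SRSF4 and 1.46 for TRA2A. For the difference they were 0.43 for SRSF5, 0.66 for SRSF11 and 0.85 for TRA2A. The averages of SRSF5 and SRSF11 include 210077_s_at (2.12) and 236948_x_at (3.11), which reached log2 4 in HFM at 24 hours alone. The other tested probe sets had differences of -0.54 and -0.30 for SRSF5 and -0.30, -0.26 and 0.11 for SRSF11. The turns of SRSF5 and SRSF11 are thus not counted as support. Without cross-hybridising types, SRSF3 was at 0.99 and 0.96 at 12 and 24 hours and 1.34 and 1.31 for time in GM and HFM, SRSF10 at 0.17 at both times and 0.45 for time in HFM, and SRSF1 at 0.25 and 0.89 for time in GM and HFM. With centred arrays, SRSF3 was at 0.00 for time in GM, SRSF1 at 0.19, SRSF10 at 0.01 and TRA2A at 0.06 for time in HFM, and TRA2A at 0.13 for the difference. Repeated quantile normalisation gave -0.00 for SRSF10 for time in GM. The term for the hybridisation control class gave 0.12 for SRSF4 and -0.20 for SRSF10 for time in GM, and 0.08 for SRSF11 and 0.00 for TRA2A for the difference. Within each other group the arrays were alike in class. The size of the term was therefore set by HFM replicate 1 at 12 hours against replicates 2 and 3. These values carry the deviation of that array, so they cannot tell an effect of the control class from it. Leaving out 1 array gave -0.12 to 0.04 for SRSF10 at 12 hours, -0.03 to 0.00 for SRSF3 for time in GM and -0.03 to 0.12 for SRSF5 for time in HFM. In fits of only the compared groups the difference could not be fitted.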
